A study of Homo sapiens with 2 samples.

Results

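The genes described here are 40 genes of the BCL2 family and of the machinery that carries out apoptosis, of 20176 protein-coding genes in the annotation. They form a list of gene names. Each region at which the FLAG-SMARCA4 signal differed between parental cells and a GSK126-resistant clone was assigned to a gene when its nearest edge lay within 1 kb of any annotated transcription start site (TSS), or otherwise when it overlapped the gene body. Of the 12896 regions in both deposited lists, 22 lay within 1 kb of a TSS of these genes and a further 12 lay elsewhere in their bodies, so that 34 regions are described.

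SMARCA4, also called BRG1, is a catalytic subunit of the SWI/SNF chromatin remodeling complex, and it carried a FLAG tag at its endogenous locus in both libraries. The first library came from parental TOV21G cells, an ovarian clear cell carcinoma line with mutated *ARID1A*, and the other from EIR clone 3, where EIR stands for EZH2 inhibitor resistant. The clone was grown out of TOV21G cells in GSK126, an inhibitor of the methyltransferase EZH2, at 5, 10, 15 and finally 20 µM. It stands for 1 resistant clone and no other, and with 1 library per condition the difference between clone and parental cells cannot be told apart from the difference between single libraries.

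Apoptosis in vertebrate cells is decided largely at the mitochondrion. BH3-only proteins bind the anti-apoptotic members of the BCL2 family or activate BAX and BAK, which open the outer membrane, and released cytochrome c then assembles the apoptosome that activates caspases. Death receptors at the cell surface start a parallel route through caspase 8, and the inhibitor of apoptosis proteins (IAPs) restrain caspases further down.

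A parental-higher region, with more tags in the parental library, lay within 1 kb of a TSS of 17 of the 40 genes (42.5%). The share over all protein-coding genes was 23.2%. An EIR-higher region lay within 1 kb of a TSS of 1 gene, *BIRC6* (2.50%), against 1.96% of all protein-coding genes. Most deposited regions were parental-higher, 10792 against 2104 EIR-higher, and 5196 against 495 within 1 kb of any TSS. Of the 34 regions described here, 30 were parental-higher, so this direction is not particular to these genes. Away from a TSS, 5 genes had a parental-higher region in the gene body (12.5%, background 9.22%) and 3 had an EIR-higher one (7.50%, background 3.13%). The remaining 22 genes (55.0%) had no region in either list. The share of all protein-coding genes without a region was not computed, so this count cannot be called high or low. The lists, which leave out regions of equal signal, do not show whether SMARCA4 occupied those promoters alike in both libraries or not at all. The set is small, was read without a test, and its genes have more annotated start sites than most, with a median of 8 TSS positions against 5 over all protein-coding genes. Among all protein-coding genes the share with a parental-higher region was 12.4% at 1 or 2 positions, 21.7% at 3 to 5, 26.3% at 6 to 10, 33.0% at 11 to 20 and 37.5% at 21 or more. In the same classes the genes of the set had one in 2 of 7, 4 of 6, 5 of 17, 4 of 8 and 2 of 2 cases. The median number of positions was 8 both for the genes with a parental-higher region and for those without one. Their median gene lengths differed, 48.9 kb with one and 13.4 kb without, against 27.2 kb over all protein-coding genes. Whether gene length goes with the count was not tested.

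The regions were also counted by role, beside the 23.2% of all protein-coding genes with a parental-higher region within 1 kb. BH3-only genes had a parental-higher region within 1 kb in 6 of 8 cases (75%) and death receptors and their adaptors in 4 of 6 (66.7%). The count was 2 of 6 for the anti-apoptotic BCL2 family, 1 of 3 for the pore-forming effectors, 1 of 3 for other BCL2-like genes, 1 of 5 for caspases, 2 of 5 for IAPs and 0 of 4 for the apoptosome and mitochondrial factors. These counts are too small to order the roles, and no test of a difference between them was made.

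**Figure D1:**
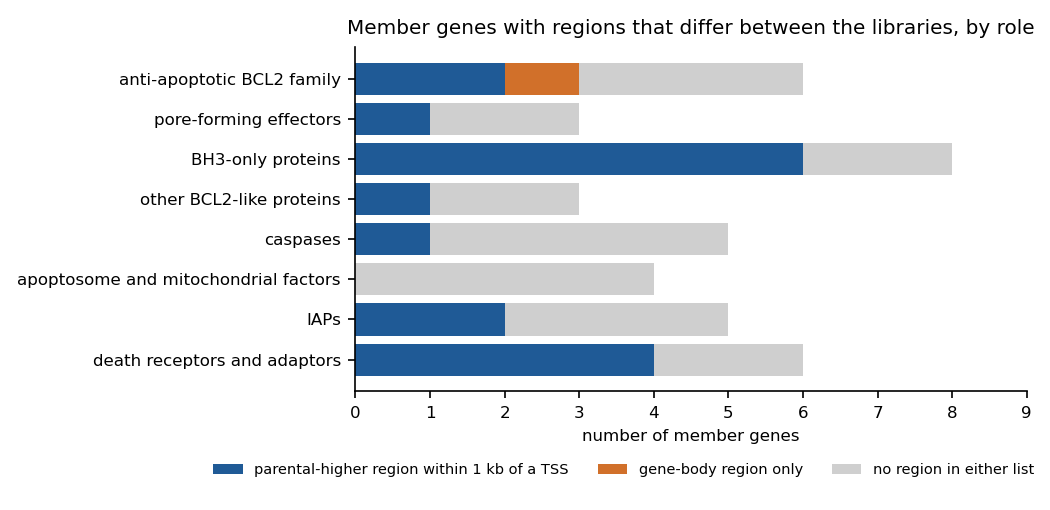
Number of genes (horizontal axis) in each functional role (vertical axis), split into those with a parental-higher region within 1 kb of a TSS (blue), those with a region in the gene body only (orange) and those with no region in either list (grey). BH3-only genes had a parental-higher region in 6 of 8 cases and the apoptosome and mitochondrial factors in 0 of 4, counts too small to order the roles.

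In the text that follows, tags are aligned reads in a region, EIR tags are also given after scaling to the smaller parental library (about 25600000 tags in all against 35000000, so that 1 EIR tag counts as 0.733), and fold is parental over scaled EIR tags unless stated otherwise. Each fold has a 95% interval from the tag counts. The intervals cover counting error only, reads without molecular identifiers are not independent molecules, and the regions were selected by HOMER, the program that called them, for a difference between the same libraries. Regions with few tags pass such a selection only with a high fold, so shares of genes with a lower fold depend on tags.

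*BCL2* encodes the founding anti-apoptotic protein of the family, which holds pro-apoptotic relatives in check at the mitochondrial membrane. Its promoter region on the minus strand, chr18:60987109-60988307 (GRCh37), held 89 parental tags and 33 EIR tags. It covered the TSS of an alternative transcript and ended 107 bp upstream of the canonical one. Among the 4671 protein-coding genes with a parental-higher region within 1 kb, 88.4% had a lower fold than *BCL2* (3.68) and 80.3% had fewer parental tags, so that both its tags and its fold lay in the upper part of the range. A stretch of this region that overlaps no exon, chr18:60987633-60987782, is shown on the gene's strand because it is the promoter with the smallest HOMER p-value of the set (3.60e-24). It spans positions -421 to -272 from the nearest annotated TSS, has a GC content of 82.7%, and its capitals mark an SP1 box (GGGCGG, read here on the other strand).
BCL2 promoter stretch: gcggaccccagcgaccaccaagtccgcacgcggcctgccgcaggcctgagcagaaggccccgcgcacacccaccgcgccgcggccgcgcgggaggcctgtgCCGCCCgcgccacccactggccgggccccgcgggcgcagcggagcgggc

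A separate region deep in intron 2 of *BCL2*, chr18:60904161-60904819, went the other way. It held 6 parental tags against 29 EIR tags, 21.3 after scaling, an EIR over parental fold of 3.54 (95% interval 1.45 to 10.4). It lay 82183 bp from the canonical TSS, so *BCL2* had lower tag counts in the clone at its promoter and higher ones far inside the gene.

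*BCL2L1* encodes BCL-XL, a close anti-apoptotic relative. Its 4 regions were all parental-higher and all lay inside the gene. The region at chr20:30309119-30309619, at exon 2, held 25 parental and 14 EIR tags (10.3 scaled), a fold of 2.44 (1.22 to 5.07). The region at chr20:30308166-30308666 in intron 2 held 20 and 10 (7.3 scaled), a fold of 2.73 (1.22 to 6.53). Both were counted at a TSS through alternative transcripts, since they began 1052 and 2005 bp downstream of the canonical TSS. A TSS of *ABALON*, which is not protein-coding, also lay within 1 kb of each. Further on in intron 2, chr20:30283175-30284559 held 51 parental and 23 EIR tags (16.9 scaled), a fold of 3.02 (1.82 to 5.19). This region held the most tags in *BCL2L1*, but at 1384 bp it was also the longest of the 4, the others being 500 bp each. The counts therefore do not rank the signal per base. One of the 500 bp regions lay beside it, chr20:30285715-30286215, and held 20 and 10 tags.

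*MCL1* encodes a short-lived anti-apoptotic protein that many tumor cells depend on. No region lay within 1 kb of its TSS. The nearest parental-higher one, chr1:150553758-150554258, lay 1544 bp upstream and held 17 parental tags and 3 EIR tags (2.2 scaled), a fold of 7.73 with a wide interval (2.24 to 41.2). An EIR-higher region, chr1:150536054-150536554, lay 15532 bp from the canonical TSS, past the canonical transcript and inside longer alternative transcripts. It held 4 parental and 23 EIR tags (16.9 scaled), an EIR over parental fold of 4.21 (1.44 to 16.8). At *MCL1* the parental-higher region thus lay upstream of the gene and outside the window, whereas that of *BCL2* covered a TSS. The EIR-higher region lay far downstream in both genes, and at *MCL1* both regions had low counts. Part of the EIR-higher region of *MCL1*, chr1:150536229-150536378, is shown on the gene's strand as an example of a distal EIR-higher region. Its GC content is 53.3% and it holds no match to any motif searched, so it has no capitals.
MCL1 distal stretch: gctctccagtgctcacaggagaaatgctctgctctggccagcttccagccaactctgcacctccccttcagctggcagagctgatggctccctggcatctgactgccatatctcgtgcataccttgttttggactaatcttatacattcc

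The other anti-apoptotic genes, *BCL2L2*, *BCL2A1* and *BCL2L10*, had no region in either list, and the nearest parental-higher region was 241 kb, 88.2 kb and 66.4 kb away.

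The pore-forming effectors permeabilize the mitochondrial outer membrane. *BOK*, which can act without BAX and BAK, had a region at chr2:242498281-242499331 with 74 parental and 28 EIR tags (20.5 scaled). Its fold was 3.61 (2.31 to 5.79), higher than in 87.5% of the protein-coding genes with such a region. The region began 121 bp downstream of the canonical TSS and covered exons 1 and 2, and a TSS of the antisense gene *BOK-AS1* lay within 1 kb, so the tags cannot be assigned to one start site. *BAX* and *BAK1*, the main effectors, had no region. The nearest to *BAK1* lay 7.03 kb upstream with 19 parental and 5 EIR tags (3.7 scaled), and the nearest to *BAX* 116 kb away.

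Among the BH3-only genes, the region at *BMF*, whose product is released from the cytoskeleton and binds BCL2 proteins, had the highest parental over EIR fold of the regions within 1 kb of a TSS or in a gene body. The region, chr15:40400613-40401237, covered exon 1 and the canonical TSS on the minus strand and held 43 parental and 12 EIR tags (8.8 scaled). The fold of 4.89 (2.53 to 10.2) exceeded that of 95.9% of protein-coding genes with a parental-higher promoter region. Inside the gene, a region in intron 4, chr15:40390976-40391606, held 40 and 26 tags (19.1 scaled), a fold of 2.10 (1.25 to 3.58). At exon 4, which is coding, chr15:40395934-40396434 was EIR-higher with 5 parental and 22 EIR tags (16.1 scaled), an EIR over parental fold of 3.23 (1.19 to 10.9). *BMF* thus had regions of both directions, as *BCL2* had.

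*BCL2L11* encodes BIM, which binds every anti-apoptotic family member. It stood at the opposite end of the range. Its region, chr2:111878895-111880861, was the longest of the promoter regions (1966 bp) and held 156 parental and 134 EIR tags (98.2 scaled), the most of any of the 40 genes in both libraries. The fold was only 1.59 (1.25 to 2.02), with 97.0% of protein-coding genes with such a region having fewer parental tags and 0.214% having a lower fold. The region covered alternative start sites in intron 1 and began 404 bp downstream of the canonical TSS.

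Promoter stretches that overlap no exon are shown for these genes, *BMF* for the highest fold at a promoter and *BCL2L11* for the most tags. The *BMF* stretch is chr15:40401094-40401237 on the minus strand, positions -144 to -1 from the nearest TSS, with a GC content of 64.6%. Its capitals mark a CCAAT box (CCAAT, here on the other strand) and an SP1 box (GGGCGG). The *BCL2L11* stretch is chr2:111879803-111879952 on the plus strand, positions -350 to -201 from the nearest TSS and 1312 to 1461 bp downstream of the canonical one, with a GC content of 67.3%. Its capitals mark an ETS core (CCGGAA).
BMF promoter stretch: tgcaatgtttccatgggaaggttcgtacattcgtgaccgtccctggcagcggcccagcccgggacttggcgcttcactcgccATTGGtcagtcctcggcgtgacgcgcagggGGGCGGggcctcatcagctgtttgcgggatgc
BCL2L11 promoter stretch: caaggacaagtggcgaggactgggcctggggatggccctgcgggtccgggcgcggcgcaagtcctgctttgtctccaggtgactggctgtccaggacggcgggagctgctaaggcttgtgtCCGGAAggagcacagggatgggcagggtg

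*BID* encodes the protein that caspase 8 cleaves to link the death receptors to mitochondria. Its region, chr22:18256569-18257587, covered exon 1 and the canonical TSS and held 90 parental and 46 EIR tags (33.7 scaled), a fold of 2.67 (1.85 to 3.90). *BIK*, which encodes a BH3-only protein of the endoplasmic reticulum, had 76 and 54 tags (39.6 scaled) at chr22:43506665-43507499 over exon 1, a fold of 1.92 (1.34 to 2.77). Both promoters had many tags, with more parental tags than 80.9% and 72.5% of protein-coding genes with such a region, but the *BIK* fold was higher than in only 8.99%.

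*BBC3* encodes PUMA, a p53-induced activator of apoptosis. At chr19:47733566-47734066 in intron 1, 390 bp from the canonical TSS, it held 30 parental and 15 EIR tags (11 scaled), a fold of 2.73 (1.42 to 5.46). Over exon 2, chr19:47730872-47731500 held 29 and 15 tags, a fold of 2.64 (1.37 to 5.29), and lay 426 bp from the start of a retained-intron transcript and 2956 bp from the canonical TSS. The counts at both sites were almost equal, and the TSS of the microRNA gene *MIR3191* lay within 1 kb of the exon 2 region.

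*HRK* encodes Harakiri, best known from dying neurons. The region over exon 1 and the canonical TSS, chr12:117319235-117319735, held 17 parental and 6 EIR tags (4.4 scaled), a fold of 3.87 (1.45 to 12.0). A further region in intron 1, chr12:117317940-117318440, held 18 and 8 tags (5.9 scaled), a fold of 3.07 (1.27 to 8.16). The folds were high but rested on few tags, as 0.642% of protein-coding genes with a parental-higher promoter region had fewer than *HRK* in the parental library. A region with so few tags is listed only if its fold is high.

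*BAD* and *PMAIP1* (NOXA) were the BH3-only genes with no region within 1 kb or in the gene body. An EIR-higher region lay 2795 bp upstream of *BAD* (3 parental and 23 EIR tags, 16.9 scaled), near a TSS of *GPR137*. The nearest parental-higher region was 20.7 kb from *BAD* and 541 kb from *PMAIP1*.

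Of the other BCL2-like genes, *BCL2L13*, whose product acts as a mitophagy receptor at the mitochondrion, had a region over exon 1 and the canonical TSS at chr22:18120521-18121771. It held 62 parental and 38 EIR tags (27.9 scaled), a fold of 2.23 (1.46 to 3.43), higher than in 31.1% of protein-coding genes with such a region. *BCL2L12* and *BCL2L14* had no region.

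**Figure D2:**
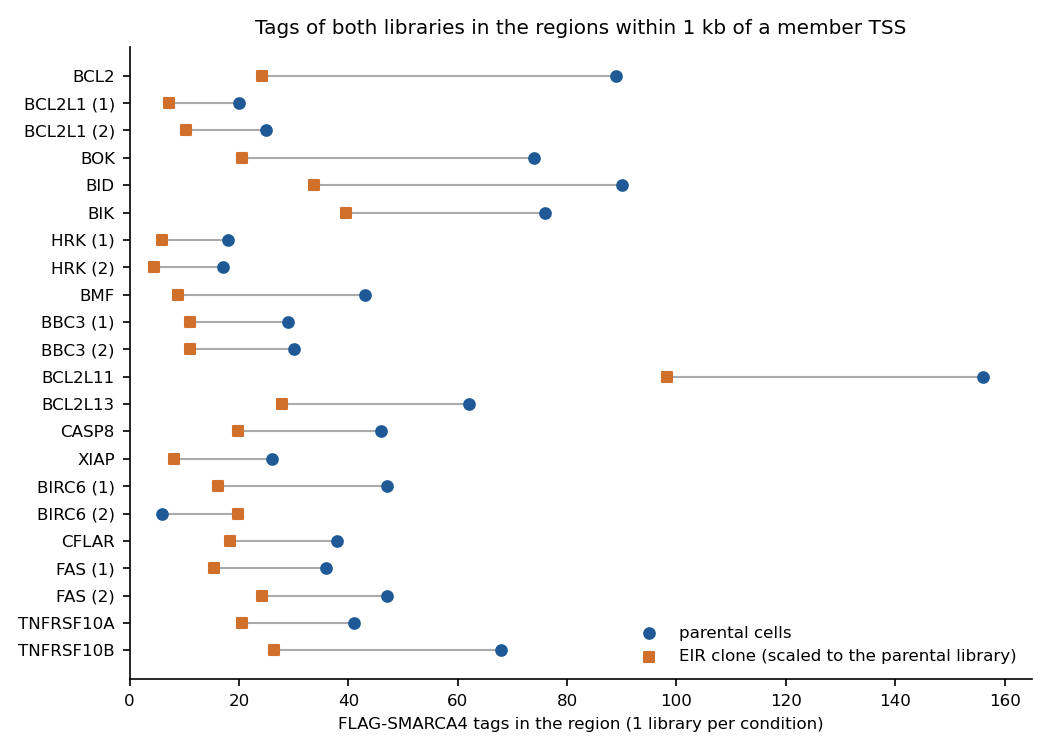
FLAG-SMARCA4 tags (horizontal axis) in each of the 22 regions within 1 kb of a TSS of the listed genes (vertical axis), with parental tags as blue circles and EIR tags scaled to the parental library as orange squares, 1 library per condition. The EIR squares lie left of the parental circles in 21 regions and to the right in 1, the second region of *BIRC6*, and *BCL2L11* is far to the right with 156 parental tags.

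*CASP8* encodes the initiator caspase of the death receptor route. Its region at chr2:202122516-202123352 held 46 parental and 27 EIR tags (19.8 scaled), a fold of 2.32 (1.41 to 3.89). It covered the TSS of an alternative transcript and ended 1907 bp upstream of the canonical TSS. A region still further upstream in the gene record, chr2:202120509-202121009, held 19 and 9 tags (6.6 scaled), a fold of 2.88 (1.24 to 7.23). *CASP8* lies in a cluster with *CASP10* and with *CFLAR*, which encodes FLIP, a catalytically inactive relative that blocks caspase 8.

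*CFLAR* had 3 parental-higher regions, so that the cluster held 5 in all, none of them at *CASP10*. In intron 1, chr2:201989617-201990247 held 23 parental and 11 EIR tags (8.1 scaled), a fold of 2.85 (1.34 to 6.48). At exon 8, chr2:202014110-202014746 held 38 and 25 tags (18.3 scaled), a fold of 2.07 (1.22 to 3.58), and in intron 8, chr2:202016229-202017111 held 36 and 20 (14.7 scaled), a fold of 2.46 (1.38 to 4.48). The exon 8 region lay 33223 bp downstream of the canonical TSS and was counted through a retained-intron transcript that starts 436 bp before it, and a TSS of *CFLAR-AS1* lay within 1 kb, so it does not mark the main *CFLAR* promoter. A TSS of *CFLAR-AS1* lay within 1 kb of the intron 8 region too.

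The other caspases *CASP2*, *CASP6* and *CASP9* also had no region. The apoptosome and mitochondrial factors had none either. These are *APAF1*, the scaffold of the apoptosome, *CYCS*, which encodes cytochrome c, and *DIABLO* and *HTRA2*, whose products antagonize IAPs. The nearest parental-higher region to *APAF1* lay 9.39 kb upstream (17 parental and 6 EIR tags, 4.4 scaled), and those to *CYCS*, *DIABLO* and *HTRA2* lay 112, 103 and 46.8 kb away.

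Among the IAPs, *XIAP* encodes the most direct inhibitor of effector caspases. Its region, chrX:122994296-122994974, held 26 parental and 11 EIR tags (8.1 scaled), a fold of 3.22 (1.54 to 7.23). It covered the TSS of an alternative transcript and began 393 bp from the canonical TSS, in intron 1.

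*BIRC6* encodes BRUCE, a giant IAP with ubiquitin-conjugating activity, and it was the only one of the 40 genes with regions of both directions within 1 kb of its start sites. Upstream of the canonical TSS, chr2:32580623-32581789 held 47 parental and 22 EIR tags (16.1 scaled), a fold of 2.91 (1.72 to 5.08). Its nearest edge was 302 bp from that TSS. In intron 1, chr2:32583317-32583817 held 6 parental and 27 EIR tags (19.8 scaled), an EIR over parental fold of 3.30 (1.33 to 9.77), 924 bp past an alternative TSS and 1226 bp past the canonical one. The tags of the clone were thus higher downstream and lower upstream of the same start sites. Both stretches are shown on the gene's strand for that contrast. The upstream stretch, chr2:32581131-32581280, spans positions -960 to -811 from the canonical TSS, has a GC content of 34.0%, and its capitals mark 2 CCAAT boxes on the other strand. The intron 1 stretch, chr2:32583492-32583641, lies 1099 to 1248 bp past the nearest TSS, has a GC content of 40% and holds no match to any motif searched.
BIRC6 upstream stretch: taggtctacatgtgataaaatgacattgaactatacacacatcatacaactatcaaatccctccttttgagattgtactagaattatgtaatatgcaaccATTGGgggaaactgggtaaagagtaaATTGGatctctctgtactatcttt
BIRC6 intron 1 stretch: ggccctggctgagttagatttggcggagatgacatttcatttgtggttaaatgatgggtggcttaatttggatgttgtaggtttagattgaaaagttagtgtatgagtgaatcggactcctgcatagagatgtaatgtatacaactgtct

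*BIRC2* and *BIRC3*, neighbors that encode cIAP1 and cIAP2, shared their nearest parental-higher region, 24.3 kb and 50.5 kb away. *BIRC5*, which encodes survivin, a regulator of mitosis as well as of apoptosis, had its nearest 14.9 kb away. None of these genes had a region of its own.

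Among the death receptors, *FAS*, the receptor for FAS ligand, held the most regions of the 40 genes, 5 in all. All were parental-higher, as most deposited regions were. Upstream, chr10:90748948-90749448 held 36 parental and 21 EIR tags (15.4 scaled), a fold of 2.34 (1.33 to 4.22), and its edge lay 966 bp from a TSS. Just downstream of an alternative TSS, chr10:90751477-90751977 held 47 and 33 (24.2 scaled), a fold of 1.94 (1.22 to 3.13), with a TSS of *ACTA2* within 1 kb. The 3 regions further inside the gene overlapped no exon of *FAS* and held 32, 47 and 26 parental tags against 10.3, 22.7 and 10.3 scaled EIR tags, folds of 3.12, 2.07 and 2.53. A TSS of another gene that is not protein-coding lay within 1 kb of the first of these. Upstream of *FAS* and outside the window, in the body of *ACTA2*, further parental-higher regions lay 3.94 kb away (26 parental and 8.1 scaled EIR tags, fold 3.22) and 5.44 kb away (20 and 7.3, fold 2.73). Lower counts in the clone were therefore seen in a row of regions on both sides of the start of *FAS*. How densely such regions lie along the rest of chromosome 10 was not computed, so the row cannot be called particular to *FAS*.

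The TRAIL receptors TNFRSF10A and TNFRSF10B, which bind the ligand TRAIL and carry a death domain, both had a parental-higher region. At *TNFRSF10A*, chr8:23082166-23082666 covered exon 1 and the canonical TSS and held 41 parental and 28 EIR tags (20.5 scaled), a fold of 2.0 (1.21 to 3.35). At *TNFRSF10B*, chr8:22924394-22925776 in intron 1, 768 bp from the canonical TSS, held 68 and 36 tags (26.4 scaled), a fold of 2.58 (1.70 to 3.97). The intervals of the folds at these receptors overlap widely. A TSS of *TNFRSF10A-DT* lay within 1 kb of the first region, and a TSS of another gene that is not protein-coding within 1 kb of the second. The tags therefore cannot be assigned to one start site. *TNFRSF1A*, the receptor for TNF, and *FADD*, the adaptor that recruits caspase 8, had no region, the nearest parental-higher ones being 52.4 and 28.3 kb away.

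**Figure D3:**
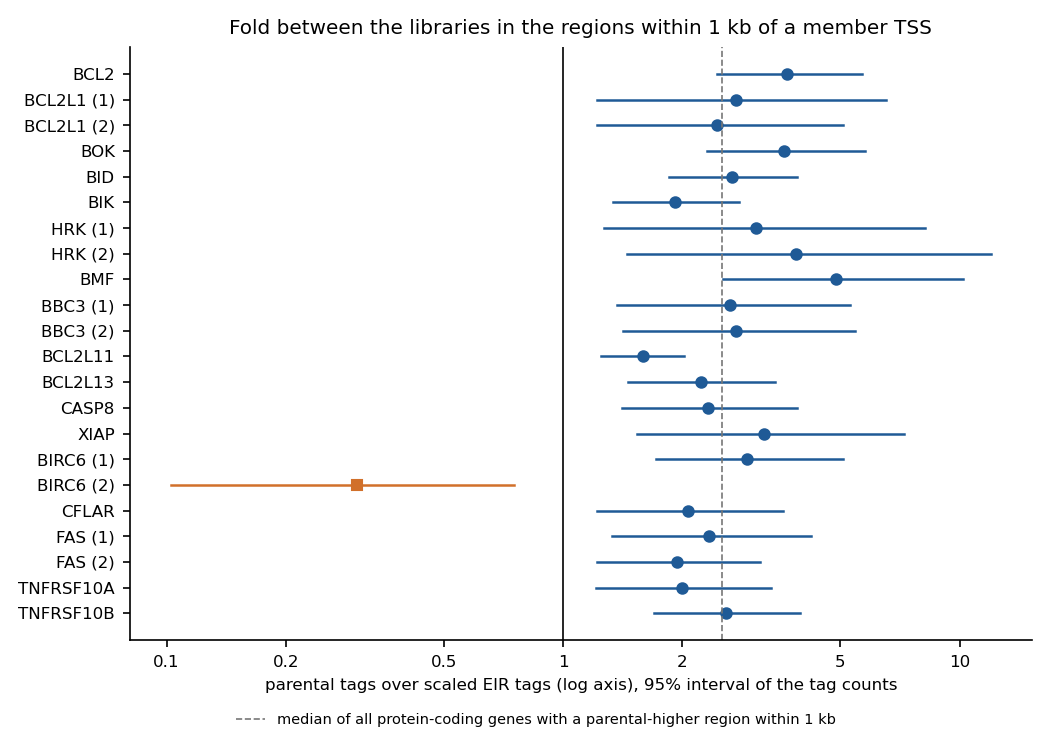
Parental tags over scaled EIR tags (horizontal axis, log scale) in the 22 regions within 1 kb of a TSS of the listed genes (vertical axis), with 95% intervals of the tag counts as lines, and the median of all protein-coding genes with a parental-higher region, 2.52, as a dashed line. Blue circles are parental-higher regions, from 1.59 at *BCL2L11* to 4.89 at *BMF*, and the orange square is the EIR-higher region of *BIRC6*.

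Taking for each gene the parental-higher region nearest to a TSS, the 17 genes had a median fold of 2.58, with quartiles of 2.07 and 3.22. Over all 4671 protein-coding genes with such a region the median was 2.52, with quartiles of 2.14 and 3.07. A fold of at least 3 was reached by 5 of the 17 genes (29.4%), *BCL2*, *BOK*, *BMF*, *HRK* and *XIAP*, against 28.2% of all. Median parental tags were 47 against 50, and the median of scaled EIR tags was 20.5 in both. In size of difference and in signal, these 17 genes therefore lay where other genes with a parental-higher region lay, with a range from *BCL2L11* to *BMF*. Both sets passed the same selection, which limits how far their tags and folds can differ. The listed genes without such a region do not enter this comparison.

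**Figure D4:**
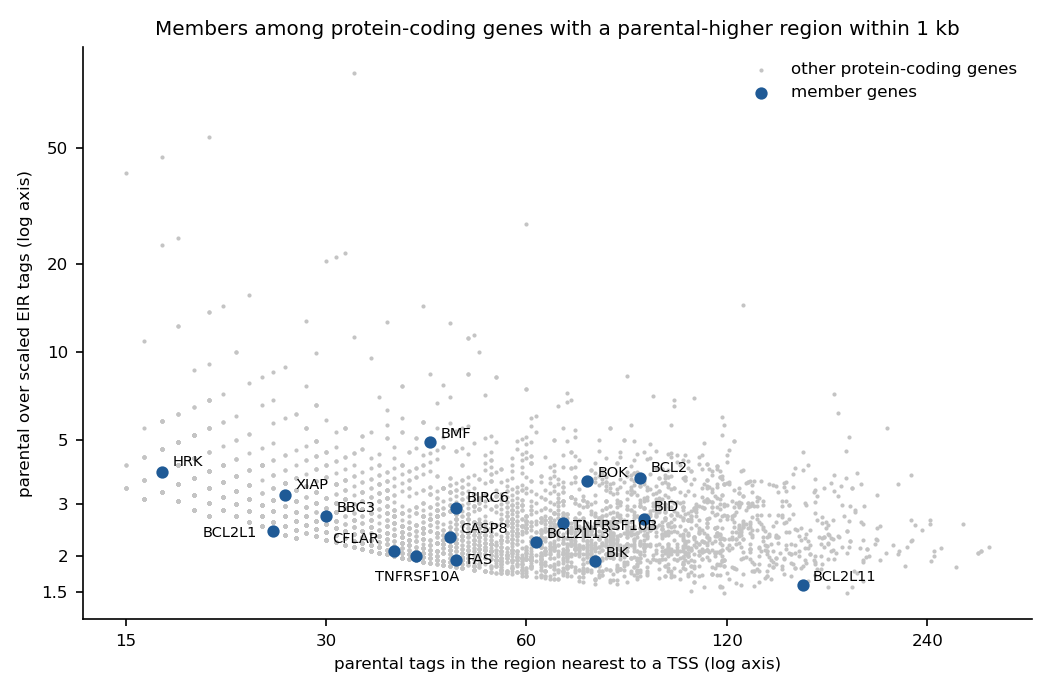
Parental tags (horizontal axis, log scale) and parental over scaled EIR fold (vertical axis, log scale) of the parental-higher region nearest to a TSS, for the 17 listed genes (blue, named) and the other protein-coding genes with such a region (grey). The 17 genes lie within the grey cloud, with *BCL2L11* at its lower edge (fold 1.59) and *BMF* highest among them (4.89).

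Of the 17 nearest regions, 10 covered a TSS (58.8%), against 73.4% over all protein-coding genes with a parental-higher region, a difference that was not tested. The regions just inside the 1 kb limit were those of *FAS*, *BCL2L1* and *BIRC6*, at 966, 946 and 924 bp. Leaving aside regions in a gene body, the first one outside it was that of *MCL1*, at 1544 bp. With only the canonical transcript of each gene, 13 genes kept a parental-higher region (20.2% of all protein-coding genes had one), and those lost were *BCL2L1*, *CASP8*, *CFLAR* and *FAS*, the last because it has no transcript tagged as canonical in this annotation.

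**Figure D5:**
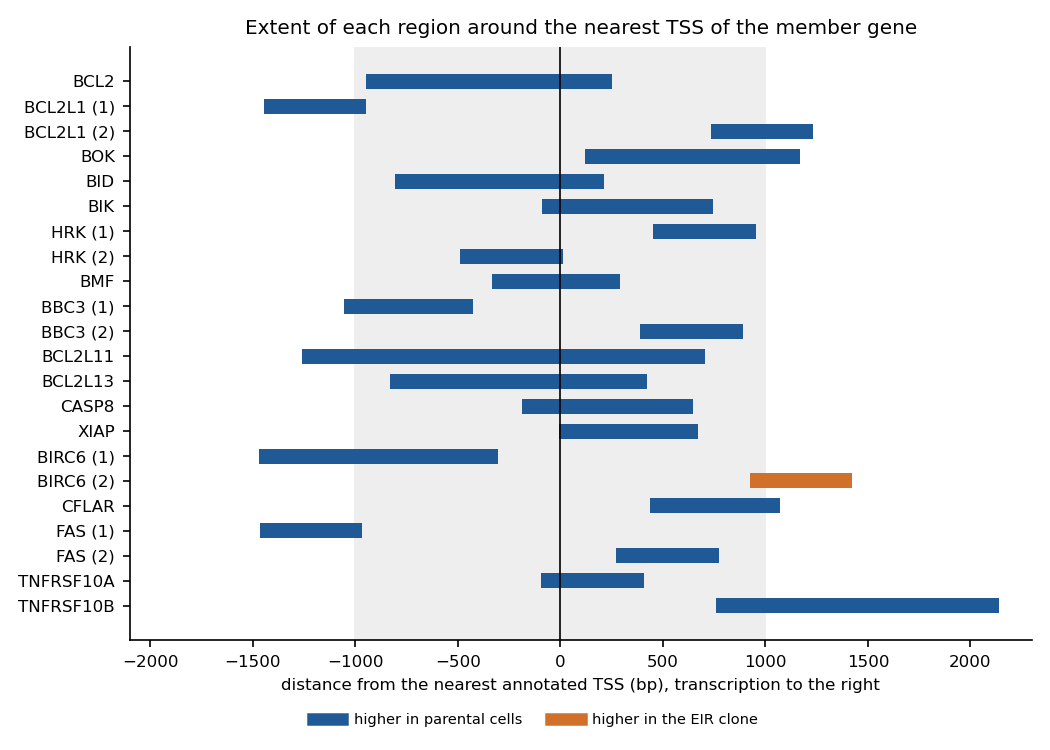
Extent of the 22 regions around the nearest annotated TSS of each listed gene (horizontal axis, bp, transcription to the right, 0 at the TSS), one region per row, blue for higher in parental cells and orange for higher in the EIR clone, with the 1 kb window shaded. The regions of *BCL2L11*, *BID* and *BMF* cover a TSS, whereas the orange region of *BIRC6* begins 924 bp downstream of one.

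The sequence of the 21 parental-higher regions, read in 300 bp centered on each, had a median GC content of 56.3%, from 33.0% to 84.3%. Over all 5196 parental-higher regions within 1 kb of a TSS it was 74.3%. Part of this gap goes with position, since the median was 68.3% in the 10 regions of these genes that cover a TSS, against 76.7% over all regions that cover one, and 48.3% in the 11 beside one, against 52.7%. The 10 and 11 were sorted by TSSs of the listed genes and all regions by TSSs of any gene. The classes are therefore not quite alike, here and for the motif shares by position below. The SP1 box GGGCGG, which marks many CpG-rich promoters, was found on either strand in 7 of the 21 (33.3%) and in 65.6% of all. The CCAAT box was found in 7 (33.3%) against 13.9%, and the ETS core CCGGAA in 5 (23.8%) against 12.8%. The AP-1 site TGANTCA occurred in 1, at *CFLAR* (4.76% against 4.18%), the TATA box TATAAA in 2 (9.52% against 5.56%) and the palindromic cyclic AMP response element, CRE, in 0 against 0.346%. These pooled motif shares mix in position as well. In regions that cover a TSS, the CCAAT box was in 1 of 10 against 9.36% of all such regions. Beside a TSS it was in 6 of 11 against 24.4%, both regions of *BBC3* included. The ETS core was in 4 of 10 against 14.9%, and in 1 of 11 against 7.67%. The SP1 box was in 5 of 10 against 80.1%, and in 2 of 11 against 31.5%. The counts are small and were not tested. All motif counts are exact matches to short strings and mark no binding site.

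Other genes of the pathway were read the same way. Of 53 genes listed, 52 were found as protein-coding, and 13 of those (25%) had a parental-higher region within 1 kb of a TSS, close to the 23.2% of all protein-coding genes. Their median fold was 2.43, from 1.87 to 2.85, and 37 had no region within 1 kb or in the gene body, a count for which no background share was computed. The 5 with the most parental tags were *VDAC1*, a channel of the mitochondrial outer membrane, *TP53BP2* and *PPP1R13B*, whose products bind p53, *BAG3*, a co-chaperone, and *ENDOG*, a mitochondrial nuclease. *VDAC1* held 167 parental and 122 EIR tags (89.4 scaled), a fold of 1.87 (1.47 to 2.38), and the other 4 held 102, 97, 94 and 89 parental tags with folds of 2.36, 2.36, 2.51 and 2.43. The 1 EIR-higher region within 1 kb was at *BAG1*, which encodes a BCL2-binding co-chaperone, with 8 parental and 29 EIR tags (21.3 scaled), an EIR over parental fold of 2.66 (1.19 to 6.73). Over all protein-coding genes, 1.96% had an EIR-higher region within 1 kb, so 1 such gene in this list is not a trait of the pathway. *BAG1* also had a parental-higher region within 1 kb, as *BIRC6* had. The highest parental over EIR fold in this list was 2.85 (1.34 to 6.48), at *PARP1* and at a second region of *BAG3*. It was below the folds of *BMF*, *HRK*, *BCL2*, *BOK* and *XIAP*, named here because they were the highest of the set. Its interval overlapped those of all these genes, and 28.2% of protein-coding genes with a parental-higher region reached a fold of at least 3.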

How the data were processed

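FLAG-SMARCA4 ChIP-seq was analysed in 1 library of parental TOV21G cells (about 25600000 tags in all) and 1 of EIR clone 3 (about 35000000). Per the submitters' processing notes and the Methods, the authors aligned reads with Bowtie 0.12.9 to hg19 and called regions with HOMER in histone style, each library serving as the control of the other, at an FDR of 5%. The deposited parental list gives a raw count of tags per region. The signal of the EIR library, and the normalized tag signal, were scaled by the authors. The deposited fold is the ratio of tags between the libraries, 0.5 of a tag being used where a control had none. The deposited p-value is HOMER's Poisson p-value, which compares these libraries and not the conditions.

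From these, 1 EIR tag was found to be worth 0.733 on the parental scale (99.4% of 154 distinct scaled values of at least 5 lay within 0.05 of a whole tag), which gave whole EIR tags. Regions were joined to every transcript TSS of GENCODE release 44 mapped to GRCh37. Overlap with a gene body required 1 bp. Intervals are exact Clopper-Pearson. No test between conditions was made, and counts were set beside those of all protein-coding genes. For each gene the region nearest to a TSS was used, ties going to the smallest p-value. Every gene of the set is named, by role, with tags and fold for each region within 1 kb. Of the other apoptosis genes, the 5 with the most parental tags and up to 3 with the most EIR tags are named. Sequences are from GRCh37, for the genes with the most parental tags, the largest fold or an EIR-higher region, with *BCL2* and the distal *MCL1* region added after their values were seen. The genes, lists and tests were chosen with earlier results of these data known. Alternatives were the window (500 bp, 5 kb), which TSSs count, distance from the centre, a minimum fold (2 or 3), a stricter p-value (1e-06), the EIR library scaled 1.5 times higher or lower, 1 tag added, and tags summed over 5 kb. Scripts were tested on simulated data and ran in Python 3.11.15 with scipy 1.17.1, pandas 2.3.3, numpy 2.4.6 and matplotlib 3.10.9.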

Additional observations from a re-analysis of the deposited data

How the results depend on the processing

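No paired analysis was possible because each condition has 1 library, which also leaves no replicate to leave out. The count of genes with a parental-higher region within 1 kb, 17, became 10 with the 5′ end of each gene record only (18.7% of protein-coding genes), 5 with a fold of at least 3 (7.06%), 11 with a p-value of at most 1e-06 (14.6%) and 6 with the EIR library scaled 1.5 times higher (8.31%), when *BCL2*, *BID*, *BIRC6*, *BMF*, *BOK* and *TNFRSF10B* were kept. The EIR-higher count, 1, became 3 with a 5 kb window (*BAD*, *BIRC6*, *BMF*) and 0 with 500 bp, the 5′ end, distance from the centre, that p-value, the EIR library scaled 1.5 times lower, or canonical TSSs, an alternative chosen after seeing the data. Genes with a gene-body region, 7, became 12 with the 5′ end, 2 with that p-value and 4 with the higher scaling. The other apoptosis genes, 13, became 0 with a fold of at least 3, 8 with that p-value and 5 with the higher scaling. Stricter settings keep fewer regions by construction. Shares over all protein-coding genes were computed under these settings for parental-higher regions only, so the other counts have no background here. The higher scaling lowered every fold, to 1.06 at *BCL2L11*, and neither it nor 1 added tag reversed one. Tags summed over regions within 5 kb add 1 parental-higher and 1 EIR-higher region at *BMF* (1124 bp, ratio 1.93, 42.7 parental against 22.2 scaled EIR tags per kb) and at *BIRC6* (1666 bp, 1.48, 31.8 against 21.6), so these ratios depend on which regions were called. The count of genes without a region stayed between 21 and 32. Regions with few tags, such as those of *HRK*, have wide intervals, and a difference between clones or replicate libraries cannot be told apart from the one measured.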
